A study of Mus musculus with 6 samples.

Results

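The genes described here are 6 cytokine and growth factor genes of group 2 innate lymphoid cells (ILC2s), Il5, Il13, Il4, Csf2, Areg and Il6. They were chosen by name, not by a threshold on their values, but with earlier results of these data known. All 6 were found among the 17546 genes of the deposited table. ILC2s are lymphocytes without antigen receptors that act early in type 2 immunity of the lung. When the alarmin IL-33 or other tissue signals reach them they release IL-5 and IL-13, which recruit eosinophils and act on epithelium and smooth muscle. They can also release IL-4, GM-CSF, amphiregulin and IL-6. The secreted proteins are short-lived signals, and their output depends closely on transcription and on the decay of their mRNAs.

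Bulk RNA-seq libraries were made from ILC2s of the lungs of BALB/c mice, which had received 3 intranasal doses of 1 µg of recombinant mouse IL-33. The culture medium of every library held 10 ng/mL of IL-2 and as much IL-7, so the DMSO libraries also come from IL-33-exposed, cytokine-fed cells and not from resting ILC2s. One group of 3 libraries (Yoda1 4, 5 and 6) came from cells given 10 µM Yoda1 for 24 h, and the other group of 3 (DMSO 1, 2 and 3) from cells given the solvent DMSO. Yoda1 is a chemical agonist of Piezo1, a channel that passes calcium when the membrane is stretched, and the comparison asks how these transcripts change when the channel is opened chemically. The labels name no genetic control for the compound, and do not say whether a library comes from 1 mouse or several. DMSO 2 and DMSO 3 share a number in the labels, as do Yoda1 4 and Yoda1 5, so the libraries of a group may not be independent samples, and p-values measure only the spread between these libraries, which may be technical.

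Total counts ran from 15355158 to 17322050 in the Yoda1 libraries and from 14214048 to 31627519 in the DMSO libraries. Levels are given in CPM, the count of a gene relative to its library's total after TMM scaling. Changes are log2 ratios of Yoda1 to DMSO and are given with their standard errors (SE). A gene was called when its p in the quasi-likelihood test of edgeR, adjusted by Benjamini-Hochberg over the 13325 genes tested, was under 0.05. By this rule 76 genes were higher and 123 lower with Yoda1, 1.49% of those tested; with upper quartile scaling the numbers were 57 and 174. All 16 genes on a list of ILC2 markers had counts in both groups, among them Gata3, at 925 ± 129 CPM with Yoda1 and 963 ± 36 CPM with DMSO (SD, n = 3 each), and Il1rl1, the IL-33 receptor, at 614 ± 76 CPM with Yoda1 and 576 ± 19 CPM with DMSO. Thy1, on the same list, was low, at 0.805 ± 0.602 CPM with Yoda1 and 2.08 ± 0.71 CPM with DMSO. Of these 16, which include Il5, Il13 and Areg, edgeR called Il2ra, the high-affinity IL-2 receptor chain, and Icos, a costimulatory receptor, lower, with log2 changes of -0.67 and -0.89. Among uncalled markers the Yoda1 libraries also lay below the DMSO libraries for Il7r, Id2, Thy1 and Areg, and above them for Rora, Klrg1, Il17rb and Il5. Groups did not overlap for 22.6% of all tested genes. Markers of natural killer cells and ILC1s, 5 genes in the table, summed to 43.9 to 63.3 CPM with Yoda1 and 154 to 210 CPM with DMSO, nearly all from the granzyme genes Gzma and Gzmb, both called lower. Among the other 3, Tbx21 was at 0 in every library but DMSO 2, and the groups overlapped for Eomes and Prf1. The 8 epithelial markers in the table summed to 55.2 to 77.7 CPM in the Yoda1 libraries and to 91.0 CPM in DMSO 1. In DMSO 2 and DMSO 3 they summed to 418 and 405 CPM, mostly from the club cell gene Scgb1a1, at 301 and 295 CPM. Scgb1a1 was at 0 in DMSO 1 and at most 0.0597 CPM in the Yoda1 libraries. In DMSO 1 and the Yoda1 libraries most of the sum came from Epcam. It was at 59.4 ± 11.5 CPM with Yoda1 and 65.9 ± 1.4 CPM with DMSO, with overlap. Cdh1, Scgb3a2 and Krt8 were at 0 in all Yoda1 libraries and in DMSO 1. Changes against DMSO 1 alone are also given for the 6 cytokines, and the part of these markers in the results was not tested.

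All 6 transcripts passed the filter on low counts and none was called by edgeR, where 1.49% of all tested genes were called, 0.57% higher and 0.923% lower. Without adjustment, p was under 0.05 for 14.5% of all tested genes, with 7.39% of all tested genes higher and 7.11% lower. At that level 2 of the 6 cytokines, Il5 and Csf2, were higher with Yoda1 and none was lower. DESeq2 called these 2 higher (6.56% of genes with an adjusted p in that test were called), limma voom called Il5 alone (2.25% called), and edgeR on genes with at least 10 CPM in 3 libraries called both (5.26% called). The 3 Yoda1 libraries lay above the 3 DMSO libraries for Il5 and Csf2 and below them for Areg, and the groups overlapped for Il13, Il4 and Il6; the groups of 22.6% of all tested genes did not overlap, 10.6% with Yoda1 above and 12% with Yoda1 below. The median log2 change of the 6 was 0.15, beside 0.01 over all genes tested, with 3 positive and 3 negative. In bulk libraries a change in the number of cells that make a transcript and a change in the transcript per cell cannot be told apart.

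**Figure D1:**
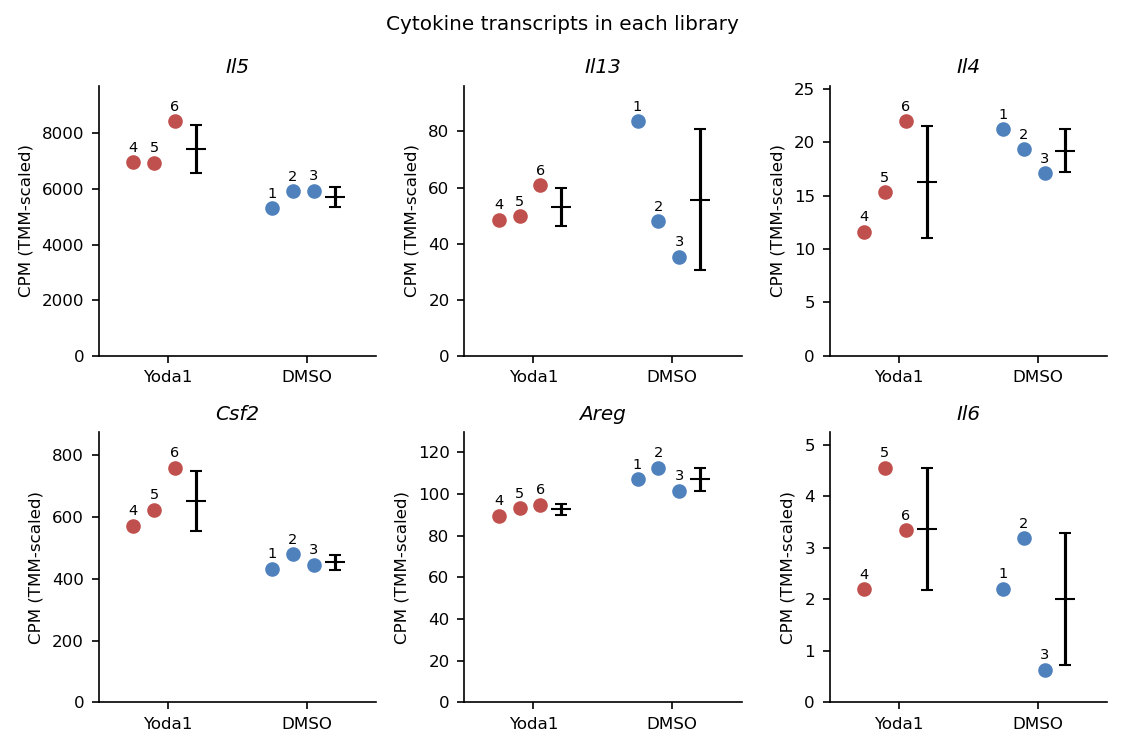
Level of each of the 6 cytokine transcripts in every library (vertical axes: TMM-scaled CPM, from 0), with Yoda1 libraries 4 to 6 in red and DMSO libraries 1 to 3 in blue; black bars show the group mean ± SD (n = 3). The Yoda1 libraries sit above the DMSO libraries for Il5 and Csf2 and below them for Areg, while DMSO 1 stands high for Il13 and DMSO 3 low for Il6.

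Per length of transcript the 6 genes kept 1 order in every library, and the ranges of neighbours in that order, over all 6 libraries, did not overlap. Il5 was highest, at 4841 ± 557 CPM per kb of merged exons with Yoda1 and 3722 ± 233 CPM per kb with DMSO (SD, n = 3 each). Csf2 followed at 814 ± 121 CPM per kb with Yoda1 and 566 ± 30 CPM per kb with DMSO. Areg was at 76.2 ± 2.3 CPM per kb with Yoda1 and 88.1 ± 4.6 CPM per kb with DMSO. Il5 thus lay above every other member in both groups. Il13, the partner cytokine of Il5 in airway disease, was at 44.0 ± 5.6 CPM per kb with Yoda1 and 46.2 ± 20.8 CPM per kb with DMSO. Il4 was at 13.3 ± 4.3 CPM per kb with Yoda1 and 15.7 ± 1.7 CPM per kb with DMSO, and Il6 at 1.39 ± 0.49 CPM per kb with Yoda1 and 0.828 ± 0.530 CPM per kb with DMSO. The closest neighbours were Areg and Il13, where the lowest Areg value was 73.7 CPM per kb and the highest Il13 value 69.4 CPM per kb, in DMSO 1.

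**Figure D2:**
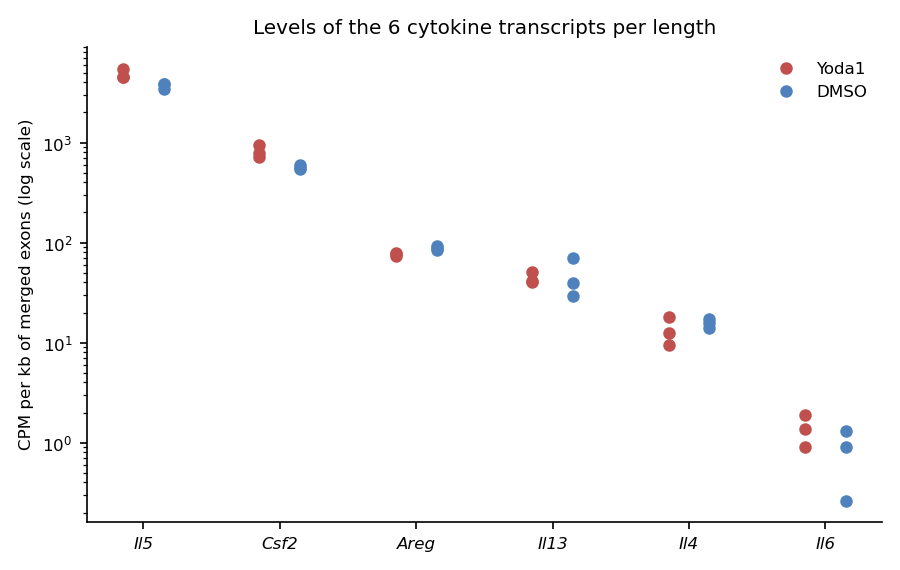
Levels of the 6 transcripts in CPM per kb of merged exons (log axis), 1 point per library, with the Yoda1 libraries in red and to the left of the DMSO libraries in blue. Il5 lies between 3453 and 5484 CPM per kb and Il6 between 0.262 and 1.88 CPM per kb.

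Il5, Il13, Il4 and Csf2 lie within 646.7 kb of chromosome 11 (GRCm38), the type 2 cytokine locus and its extension. Il4 spans 53602982 to 53618669 and Il13 spans 53631324 to 53634702, both on the minus strand and 12.65 kb apart. Il5 lies on the plus strand at 53720794 to 53725106, and Csf2 on the minus strand at 54247271 to 54249667. The other members are on chromosome 5, Il6 at 30013114 to 30019981 and Areg at 91139599 to 91148432, both on the plus strand. The pair with Yoda1 libraries above the DMSO libraries, Il5 and Csf2, is 522 kb apart, while the groups overlapped for Il13, 86.1 kb from Il5, and for Il4.

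Il5 encodes IL-5, the cytokine that drives the growth, survival and release of eosinophils. Its transcript was at 6960, 6932 and 8429 CPM in Yoda1 4, 5 and 6, and at 5308, 5924 and 5932 CPM in DMSO 1, 2 and 3. The lowest Yoda1 library lay above the highest DMSO library, and Yoda1 6 was the highest of all. Il5 took from 0.694% to 0.826% of all counts in the Yoda1 libraries and from 0.534% to 0.594% in the DMSO libraries. The log2 change was 0.38 (SE 0.08, 95% interval 0.19 to 0.57), which is 1.30-fold, and it missed the threshold (edgeR, unadjusted p = 0.00158, adjusted p = 0.0709). The change was 0.48 against DMSO 1 alone and 0.32 against DMSO 3 alone, the DMSO library whose label suffix is not 0, as in the Yoda1 libraries.

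Csf2 encodes GM-CSF, which activates macrophages, granulocytes and dendritic cells. It was at 571, 623 and 759 CPM in Yoda1 4, 5 and 6, and at 433, 479 and 446 CPM in DMSO 1, 2 and 3. The groups did not overlap, and Yoda1 6 again was the highest library. The log2 change was 0.52 (SE 0.12, 95% interval 0.26 to 0.79), which is 1.44-fold (edgeR, unadjusted p = 0.00152, adjusted p = 0.0703). It was 0.58 against DMSO 1 alone and 0.54 against DMSO 3 alone. Without Yoda1 6 it was 0.40, and that of Il5 was 0.28, the smallest values with any library left out.

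The patterns of Il5 and Csf2 across the 6 libraries were close. The ratio of Il5 to Csf2, per kb, was 6.34, 5.79 and 5.78 in Yoda1 4, 5 and 6, and 6.38, 6.43 and 6.93 in DMSO 1, 2 and 3. Likeness was measured as the root mean square difference between the log2 CPM of 2 genes, each centred on its own mean, over 6 libraries. Between Il5 and Csf2 it was 0.0911, and of 9045 genes with a mean of at least 5 CPM, 36 were that near to Csf2 or nearer, Il5 itself included, and 83 to Il5. The nearest to Il5 were Syf2, a splicing factor gene, at 0.0520, and Smim14 at 0.0522. The nearest to Csf2 were Ndufaf1, an assembly factor of respiratory complex I, at 0.0547, and Ociad1 at 0.0610.

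The windows around the start sites of Il5, Csf2 and Il13 are shown because the Yoda1 libraries lay above the DMSO libraries for Il5 and Csf2 and overlapped them for Il13, on the same chromosome. Each runs from 250 bases before the RefSeq start site to 50 bases after it (GRCm38.p6), 5′ to 3′ on the strand of the gene. Il5 is chr11:53720544-53720843 on the plus strand, Csf2 chr11:54249850-54250149 on the minus strand and Il13 chr11:53634653-53634952 on the minus strand. The windows of Il5 and Il13 hold the start of the gene in the GENCODE annotation, at 53720794 and 53634702. That of Csf2 lies wholly upstream of the GENCODE start at 54249667, so its matches are not at like positions and are not compared with the others. Capitals mark matches, on either strand, to the letters GATA of the GATA factor core, to GGAAA, the NFAT core, and to TATAAA, the TATA box. The letters TGANTCA of AP-1 sites, the letters TTCNNNGAA of STAT5 sites and the wider STAT6 palindrome were also searched.
Il5: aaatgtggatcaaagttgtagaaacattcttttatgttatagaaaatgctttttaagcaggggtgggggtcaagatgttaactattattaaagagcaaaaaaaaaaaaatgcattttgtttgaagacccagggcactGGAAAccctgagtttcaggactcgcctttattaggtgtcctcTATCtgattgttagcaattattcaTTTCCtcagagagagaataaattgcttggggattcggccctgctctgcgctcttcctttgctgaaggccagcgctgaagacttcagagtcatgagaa
Csf2: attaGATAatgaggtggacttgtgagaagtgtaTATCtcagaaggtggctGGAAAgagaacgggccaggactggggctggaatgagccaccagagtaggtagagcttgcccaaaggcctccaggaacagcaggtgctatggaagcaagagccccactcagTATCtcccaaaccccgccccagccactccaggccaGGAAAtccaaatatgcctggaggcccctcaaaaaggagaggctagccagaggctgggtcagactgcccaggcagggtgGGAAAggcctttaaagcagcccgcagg
Il13: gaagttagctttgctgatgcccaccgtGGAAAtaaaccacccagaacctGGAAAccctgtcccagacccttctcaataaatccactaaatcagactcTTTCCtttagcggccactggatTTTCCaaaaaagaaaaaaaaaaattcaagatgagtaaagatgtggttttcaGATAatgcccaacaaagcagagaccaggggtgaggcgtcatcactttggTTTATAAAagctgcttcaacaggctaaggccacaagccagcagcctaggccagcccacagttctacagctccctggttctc
The Il5 window held 1 GATA match, at -71 from the start site on the opposite strand, and 2 NFAT cores, at -113 and -47. The Csf2 window held 3 GATA matches and 3 NFAT cores, and the Il13 window 1 GATA match, 4 NFAT cores and a TATA box at -29 that overlapped another on the opposite strand. None of the 3 windows matched the AP-1 or STAT letters. Of 32851 promoter windows of this length, 57.9% held GATA, 61.3% the NFAT core, 13.6% TATAAA, 7.81% the AP-1 letters, 8.30% the STAT5 letters and 6.95% the STAT6 letters. Among the other members, the AP-1 letters were found once, in Il6, a TATA box in Areg, and 1 STAT5 and 1 STAT6 match in the 2 windows of Il4. These matches are letters in a window, not measured binding sites.

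Il13 encodes IL-13, the cytokine of mucus production and airway hyperreactivity. It was at 48.5, 49.7 and 60.8 CPM in Yoda1 4, 5 and 6, and at 83.7, 47.99 and 35.3 CPM in DMSO 1, 2 and 3. The DMSO libraries spanned all the Yoda1 values, with DMSO 1 above and DMSO 3 below every one of them. With 1516 counts in DMSO 1, 1521 in DMSO 2 and 499 in DMSO 3, exact Poisson intervals of 79.5 to 88.0, 45.6 to 50.5 and 32.3 to 38.5 CPM do not meet, as far as counting error goes. The log2 change was -0.07 (SE 0.29, 95% interval -0.74 to 0.60; edgeR, adjusted p = 0.946), so changes between 0.600-fold and 1.51-fold lie within the interval. The sign rested on DMSO 1: it was 0.35 without that library, -0.67 against DMSO 1 alone and 0.58 against DMSO 3 alone, none of them called. The gene nearest to Il13 in pattern was Cul3, a ubiquitin ligase scaffold gene, at a root mean square log2 difference of 0.0690, followed by Tmem9 at 0.149.

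The ratio of Il5 to Il13, per kb, shows the same difference between DMSO libraries on a scale that no library scaling can move. It was 112, 109 and 109 in Yoda1 4, 5 and 6, and 49.7, 96.8 and 132 in DMSO 1, 2 and 3. The Yoda1 libraries were within a narrow range, inside that of the DMSO libraries.

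Il4 encodes IL-4, the cytokine that drives IgE switching and T helper 2 differentiation, and its gene is the neighbour of Il13. It was at 11.6, 15.3 and 22.0 CPM in Yoda1 4, 5 and 6, and at 21.2, 19.3 and 17.1 CPM in DMSO 1, 2 and 3. Yoda1 4 and Yoda1 5 lay below all DMSO libraries and Yoda1 6 above them. The log2 change was -0.24 (SE 0.28, 95% interval -0.87 to 0.39; edgeR, adjusted p = 0.752). It was -0.51 without Yoda1 6 and -0.39 against DMSO 1 alone. The nearest patterns were those of the ribosomal protein gene Rps16, at a root mean square log2 difference of 0.0653, and Ogfod3, at 0.0680. The ratio of Il13 to Il4, per kb, was 4.25, 3.31 and 2.82 in Yoda1 4, 5 and 6, and 4.02, 2.53 and 2.10 in DMSO 1, 2 and 3, so it overlapped between groups.

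Areg encodes amphiregulin, an EGF receptor ligand that ILC2s use in tissue repair. It was at 89.6, 93.2 and 94.9 CPM in Yoda1 4, 5 and 6, and at 107, 113 and 101 CPM in DMSO 1, 2 and 3. All Yoda1 libraries lay below all DMSO libraries, by a small distance. The log2 change was -0.21 (SE 0.11, 95% interval -0.47 to 0.05; edgeR, adjusted p = 0.451) and was not called. It stayed between -0.26 and -0.17 with any 1 library left out, and was -0.22 against DMSO 1 alone. The ratio of Il5 to Areg, per kb, was 61.4, 58.8 and 70.2 in Yoda1 4, 5 and 6, and 39.2, 41.6 and 46.2 in DMSO 1, 2 and 3. That these do not overlap follows from the Yoda1 libraries lying above for Il5 and below for Areg, and is no further result. Tapbpl, at a root mean square log2 difference of 0.0261, and Prelid1, at 0.0272, were nearest to Areg.

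Il6 encodes IL-6, a cytokine of the acute phase response and of T helper 17 differentiation, and was the least abundant member. It had 34, 79 and 56 counts in Yoda1 4, 5 and 6, and 40, 101 and 9 counts in DMSO 1, 2 and 3. These correspond to 2.19, 4.56 and 3.34 CPM with Yoda1, and 2.21, 3.19 and 0.637 CPM with DMSO. The groups overlapped, and the exact Poisson interval of the 9 counts in DMSO 3, 0.291 to 1.21 CPM, did not meet that of DMSO 2, 2.60 to 3.87 CPM. The log2 change was 0.73 (SE 0.66, 95% interval -0.76 to 2.22; edgeR, adjusted p = 0.668). It ran from 0.31 without DMSO 3 to 1.23 without DMSO 2, and was 0.60 against DMSO 1 alone and 2.38 against DMSO 3 alone. On the linear scale the 95% interval ran from 0.589-fold to 4.66-fold. Slc25a35, at a root mean square log2 difference of 0.187, and Zfp512b, at 0.332, were nearest to Il6 and farther from it than the nearest genes of the other members were from theirs.

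**Figure D3:**
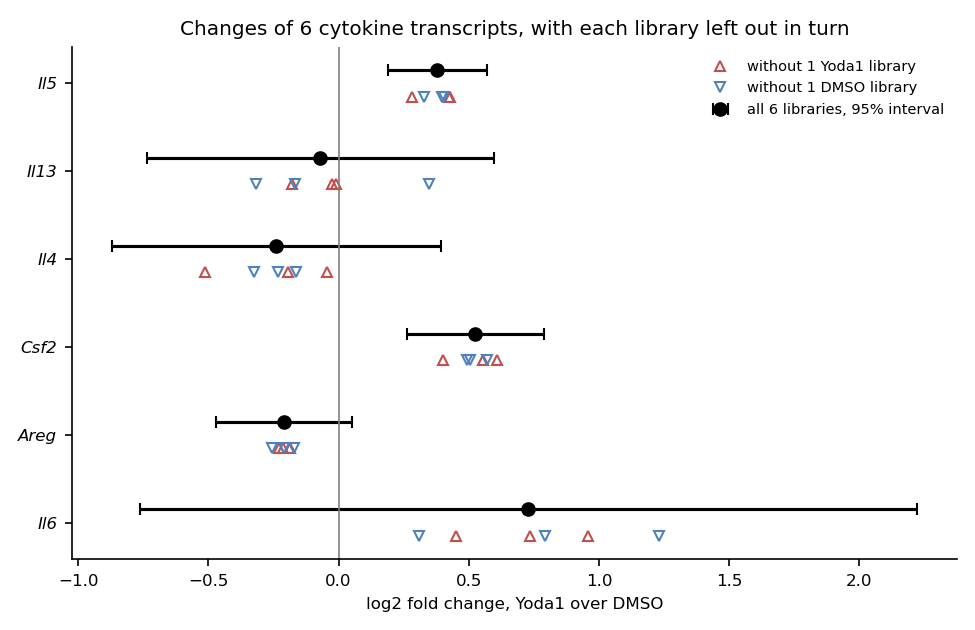
Log2 fold change of Yoda1 over DMSO for the 6 transcripts (horizontal axis), with the value from all 6 libraries and its 95% interval in black, and the values with 1 Yoda1 library (red) or 1 DMSO library (blue) left out. Il5 and Csf2 stay above 0 in every fit shown, and Areg and Il4 below it, while Il13 changes sign when DMSO 1 is left out.

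Cells of other types can make several of these cytokines, Il4, Il6 and Il13 in mast cells and basophils among them. The 7 mast cell and basophil markers in the table summed to 9.43 to 15.4 CPM in the Yoda1 libraries and 9.27 to 17.3 CPM in the DMSO libraries. Cpa3, the mast cell carboxypeptidase gene, was at 6.71, 2.71 and 2.27 CPM in Yoda1 4, 5 and 6, and at 4.25, 4.32 and 2.97 CPM in DMSO 1, 2 and 3. Markers of macrophages and monocytes summed to 18.9 to 24.2 CPM with Yoda1 and 11.04 to 15.2 CPM with DMSO over 6 genes, most of it from Cd68 and Lyz2. Lyz2 was at 6.32, 9.93 and 11.2 CPM in Yoda1 4, 5 and 6, and at 4.91, 1.29 and 1.77 CPM in DMSO 1, 2 and 3, and was not called, while Adgre1 was at 0 in all Yoda1 libraries and at 0.0552, 1.67 and 1.27 CPM in DMSO 1, 2 and 3. The 5 T cell genes in the table summed to 69.4 to 86.2 CPM with Yoda1 and 89.1 to 103 CPM with DMSO. Most of each sum came from Lat, for which the groups overlapped, and from Cd3g. Lat was at 53.9 ± 3.2 CPM with Yoda1 and 61.2 ± 6.9 CPM with DMSO (SD, n = 3 each). Cd3g was at 24.1 ± 5.2 CPM with Yoda1 and 31.5 ± 1.1 CPM with DMSO, without overlap, and was not called. Cd3e was at 0.346 to 1.31 CPM with Yoda1 and 1.93 to 2.69 CPM with DMSO. The epithelial sums, mostly from Scgb1a1, were higher in DMSO 2 and DMSO 3 than in DMSO 1. Sftpc, on the same epithelial list, went the other way, at 15.2, 0.568 and 0 CPM in DMSO 1, 2 and 3. Il13 was also highest in DMSO 1. The part of all these cells in the cytokine levels was not tested.

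The search for decay elements was chosen after the values were seen. The 3′ untranslated regions of cytokine mRNAs often hold AUUUA pentamers, to which decay factors of the ZFP36 family bind. In the principal transcripts of GENCODE M21 the pentamer, written ATTTA in DNA letters, occurred 9 times in the 317 bases of Csf2, 7 times in 1092 bases of Il5, 3 times in 741 bases of Il13, 2 times in 104 bases of Il4, 4 times in 253 bases of Areg and 6 times in 427 bases of Il6. Per kb this was 28.4 for Csf2, 19.2 for Il4, 15.8 for Areg, 14.1 for Il6, 6.41 for Il5 and 4.05 for Il13. The median was 1.41 over 16224 regions of at least 200 bases, of which 70.5% held the pentamer. The part of mRNA decay in the changes of the 6 transcripts was not tested. The region of Il4 is under 200 bases and so is not among the 16224. No region among those had a higher density than that of Csf2. The densest stretches of 30 bases are shown for the pair whose Yoda1 libraries lay above and for Il13, with the pentamers in capitals.
Csf2: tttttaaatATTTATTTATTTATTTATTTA
Il5: gataccatatgctgtttccATTTAtATTTA
Il13: atcttATTTAttatggttgtgtgttATTTA
The stretch of Csf2 held 5 overlapping pentamers, and those of Il5 and Il13 held 2 each. Of 17 genes for regulators of cytokine mRNA decay, 1 rose, none fell and 16 were not called, with a median log2 change of 0.02. For comparison, edgeR called 0.57% of all tested genes higher and 0.923% lower. The gene that rose was Btg2, which recruits the deadenylase complex, at 119.5 ± 5.7 CPM with Yoda1 and 79.9 ± 1.8 CPM with DMSO (SD, n = 3 each). Its log2 change was 0.58 (SE 0.11, edgeR, adjusted p = 0.0493). The call was lost whichever library was left out, with adjusted p from 0.0636 to 0.239 (edgeR).

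Of the receptor genes for the 6 cytokines, 9 were in the table and 8 were tested. Il5ra, Il13ra1, Il13ra2 and Egfr were listed but were not in the table, so nothing is said about them. Of the 8 tested, none rose, 1 fell and 7 were not called. DESeq2 and voom also had none higher, and edgeR had none higher at an unadjusted p under 0.05. Among all tested genes edgeR called 0.57% higher and 0.923% lower, and 7.39% were higher at an unadjusted p under 0.05. The gene that fell was Csf2rb, the signalling chain shared by the receptors of IL-5, GM-CSF and IL-3. It was at 14.6, 11.9 and 3.82 CPM in Yoda1 4, 5 and 6, and at 40.8, 54.6 and 46.2 CPM in DMSO 1, 2 and 3. The groups were far apart, with a log2 change of -2.22 (SE 0.43, edgeR, adjusted p = 0.0464). The call was kept without Yoda1 6 (adjusted p = 0.0142, edgeR) and lost without any other library, with adjusted p up to 0.194 without DMSO 2. Its paralog Csf2rb2, near-identical in sequence, could share its reads, and was at 2.68 ± 1.85 CPM with Yoda1 and 5.77 ± 0.55 CPM with DMSO (SD, n = 3 each). Il4ra, the receptor chain for IL-4 and IL-13, was at 171 ± 22 CPM with Yoda1 and 199 ± 3 CPM with DMSO, and was not called; it and Csf2rb2 were named after their values were seen.

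Of 10 tested other genes of the cytokine locus on chromosome 11, none was called in edgeR, DESeq2 or voom, and none reached an unadjusted p under 0.05 in edgeR; the groups overlapped for all 10 and the median log2 change was -0.04. Over all tested genes 1.49% were called and 22.6% did not overlap, so nothing about the locus is read from a count of 0 calls among 10 genes. Rad50, the DNA repair gene that lies between Il13 and Il5, was at 124 ± 27 CPM with Yoda1 and 140 ± 8 CPM with DMSO (SD, n = 3 each). Aff4, a transcription elongation gene, was at 355 ± 76 CPM with Yoda1 and 422 ± 25 CPM with DMSO.

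The other EGF family ligands and the proteases that release them were not called either, where edgeR called 1.49% of all tested genes. An unadjusted p under 0.05 was found for 14.5% of all tested genes. Of 8 tested genes edgeR, DESeq2 and voom called none, and the unadjusted p of edgeR was under 0.05 for 1 gene, which was higher; the median log2 change was 0.14. That gene was Adam17, which encodes the protease that sheds amphiregulin from the cell surface, at 183 ± 21 CPM with Yoda1 and 148 ± 10 CPM with DMSO (SD, n = 3 each). Its log2 change was 0.31 (SE 0.12, edgeR, adjusted p = 0.293). Adam10, a related protease, was at 85.3 ± 6.9 CPM with Yoda1 and 98.95 ± 19 CPM with DMSO.

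Among 10 tested genes of the IL-6 family and other haematopoietic cytokines, 2 fell, none rose and 8 were not called, with a median log2 change of -0.71; the unadjusted p was under 0.05 for 2 higher and 5 lower genes, and DESeq2 called 5, of which 1 was higher. Beside this, edgeR called 1.49% of all tested genes, 14.5% had an unadjusted p under 0.05, and DESeq2 called 6.56% of genes with an adjusted p. As the list was chosen with earlier results of these data known, nothing about it is read from these counts. The genes that fell were Il9, a mast cell and ILC2 growth factor, and Il10, an anti-inflammatory cytokine. Il9 was at 0.774, 2.02 and 3.76 CPM in Yoda1 4, 5 and 6, against 25.9, 32.5 and 39.8 CPM in DMSO 1, 2 and 3. Il10 was at 2.90, 6.41 and 6.74 CPM in the Yoda1 libraries, against 22.6, 27.3 and 19.5 CPM in the DMSO libraries. Their log2 changes were -3.89 (SE 0.50) and -2.11 (SE 0.36), and both calls held only without Yoda1 4 or Yoda1 6 when 1 library was left out. Their adjusted p reached 0.0731 without Yoda1 5 for Il9 and 0.149 without DMSO 2 for Il10 (edgeR). Both were low in every Yoda1 library, where Il5 and Csf2 were at their highest.

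In the list of other ILC2 effector genes, which also holds Il9 and Il10, 1 of 18 tested genes rose, 3 fell and 14 were not called. The shares over all tested genes were 0.57% higher and 0.923% lower (edgeR). Nothing is read from these counts either, since this list too was chosen with earlier results of these data known. Arg1, the arginase of ILC2s, rose to 462 ± 15 CPM with Yoda1, against 243 ± 33 CPM with DMSO (SD, n = 3 each), a log2 change of 0.93 (SE 0.11, edgeR, adjusted p = 0.00868). Lta, which encodes lymphotoxin alpha, fell to 45.7 ± 9.1 CPM with Yoda1, against 123 ± 6 CPM with DMSO, a log2 change of -1.43 (SE 0.16, adjusted p = 0.00720 in the same test). With 1 library left out, the highest adjusted p was 0.0747 for Arg1, without DMSO 2, and 0.0668 for Lta, without DMSO 3 (edgeR). Arg1 was called in 3 and Lta in 2 of the 6 such fits; the others, which lost the call, were those without Yoda1 5, DMSO 2 or DMSO 3, and for Lta also the one without DMSO 1. Retnla, named after its values were seen, was not called: it was at 0.387, 0 and 2.39 CPM in Yoda1 4, 5 and 6, and at 1.16, 101 and 105 CPM in DMSO 1, 2 and 3. The high values stood in the DMSO libraries that also had the high epithelial sums.

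Of 32 transcription factors that act on type 2 cytokine genes, 2 fell, none rose and 30 were not called; DESeq2 called 6, of which 2 were higher, and unadjusted p values of edgeR were under 0.05 for 2 higher and 9 lower genes. The median log2 change was -0.10. Over all tested genes edgeR called 1.49%, and 14.5% had an unadjusted p under 0.05, while DESeq2 called 6.56% of genes with an adjusted p. The list was chosen with earlier results of these data known, so nothing about it is read from these counts. Nfkb1, which encodes the p50 subunit of NF-kB, was at 209, 205 and 202 CPM in Yoda1 4, 5 and 6, and at 336, 354 and 340 CPM in DMSO 1, 2 and 3. Its log2 change was -0.74 (SE 0.09, edgeR, adjusted p = 0.00734). Irf4, a factor that cooperates with BATF and NFAT at cytokine genes, fell to 14.4 ± 6.8 CPM with Yoda1, against 52.1 ± 6.8 CPM with DMSO, a log2 change of -1.85 (SE 0.36, adjusted p = 0.0493 in the same test). With 1 library left out, Nfkb1 was called without Yoda1 4 and without Yoda1 6, and Irf4 without Yoda1 6; the highest adjusted p, both without DMSO 2, were 0.0784 and 0.193 (edgeR). Named after their values were seen, Stat6 was at 317 ± 44 CPM with Yoda1 and 211 ± 28 CPM with DMSO, Rora at 418 ± 50 CPM with Yoda1 and 309 ± 23 CPM with DMSO, and Maf, an activator of Il4 in T cells, at 21.1 ± 4.1 CPM with Yoda1 and 43.5 ± 4.3 CPM with DMSO (SD, n = 3 each). edgeR called none of these 3, with adjusted p of 0.0821, 0.112 and 0.0539. Against DMSO 1 alone the called genes of these lists kept their direction, with log2 changes of -3.57 for Il9, -2.09 for Il10, -2.02 for Csf2rb, -2.01 for Irf4, -1.49 for Lta, -0.72 for Nfkb1, 0.57 for Btg2 and 1.14 for Arg1, and with no gene called in that fit.

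**Figure D4:**
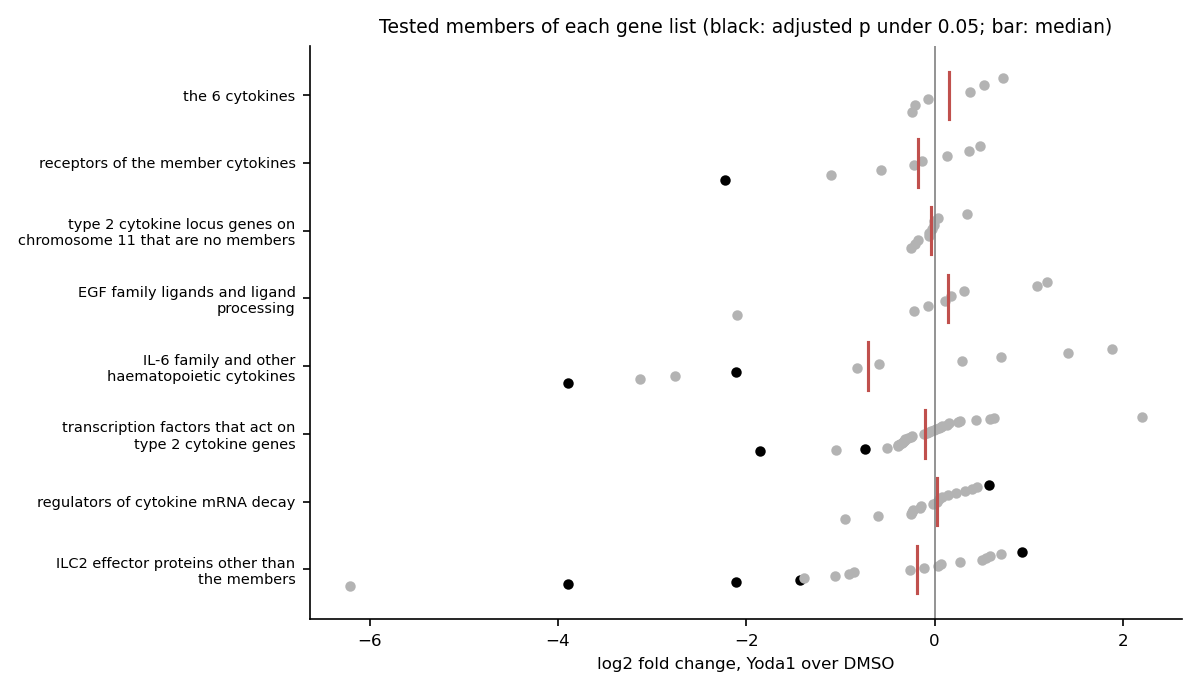
Log2 fold changes of Yoda1 over DMSO (horizontal axis) for the 6 cytokines and for the tested members of each gene list, 1 point per gene, black where the adjusted p was under 0.05 (edgeR), with a red bar at the median. No cytokine of the 6 is black, and the fitted changes of genes with libraries at 0 depend on the prior count of the fit.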

How the data were processed

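The measurement was bulk RNA-seq of 6 libraries, 3 Yoda1 and 3 DMSO by the sample labels; the series' design text and the deposited table name the control PBS. Per the labels' protocols, the cDNA was made from 10 ng of RNA. The authors deposited expected counts, fractional estimates of reads for 17546 genes, in 1 table; per the submitters' processing notes the build was mm10, while for the aligner, counting method, strand setting and filters nothing is given in the sources used here. Counts were rounded to whole numbers.

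The test was edgeR 4.0.16 in R 4.3.3: TMM factors, filterByExpr with a minimum count of 10 and a minimum total of 15, then glmQLFit and glmQLFTest over all genes, with no covariate, Benjamini-Hochberg adjustment and a threshold of 0.05. CPM refer to the tested genes. The SE of a log2 change is its size over the square root of F, and its 95% interval uses the fit's total degrees of freedom. The common biological coefficient of variation was 0.355. A count of 0 allows up to 0.0949 to 0.211 CPM, taken as 3 counts, for counting error only, as the Poisson intervals do. Within groups, each pair of libraries had a chi-square of 19.27 times its degrees of freedom or more, so none agreed within sampling noise. The script was tested on simulated data.

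Positions, exon lengths and 3′ untranslated regions came from GENCODE M21 (GRCm38, also called mm10), and start-site windows from RefSeq on GRCm38.p6, where all 6 symbols matched. The 6 genes and the gene lists were chosen with earlier results of these data known. From each list the text names up to 4 called genes with the smallest p, or up to 2 genes where none was called; for likeness it names the 2 nearest genes with a mean of at least 5 CPM, without predicted genes, pseudogenes or receptor segments, from log2 CPM (prior count 2). Alternatives were 3 other scalings, DESeq2 1.42.0, limma 3.58.1 voom, 2 other filters, glmTreat, the label suffix as a term, summed libraries, each library left out, and DMSO 1 or DMSO 3 alone. Several marker genes were not analysed here.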

Additional observations from a re-analysis of the deposited data

How the results depend on the processing

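No member was called with any library left out, with the other scalings, without a filter, with glmTreat, with the label suffix as a term, with summed libraries or with DMSO 1 or DMSO 3 alone. With a filter of 10 CPM in 3 libraries (8518 genes tested) Il5 and Csf2 passed, at 0.35 and 0.49; DESeq2 called both, at 0.39 and 0.53, and voom called Il5, at 0.37, while Csf2 had an adjusted p of 0.05002 there, just over the threshold. Il5 ran from 0.28 to 0.48 and Csf2 from 0.40 to 0.61 over 18 alternatives. Il13 turned positive, at 0.0059 with voom, 0.59 with the label suffix as a term, 0.35 without DMSO 1 and 0.58 with DMSO 3 alone, and ran from -0.32 to 0.35 with 1 library left out; DMSO 1 is the library with the highest Il13. The other members kept their sign, Il4 from -0.51 to -0.05, Areg from -0.26 to -0.13 and Il6 from 0.31 to 2.39; Il6 has no value under the 10 CPM filter.

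Genes higher and lower over all genes, 76 and 123, became 158 and 290 with that filter, 428 and 498 in DESeq2, 6 and 10 with glmTreat against a 1.5-fold change, 2 and 1 with the label suffix as a term, 1 and 0 with summed libraries (703 and 809 at an unadjusted p under 0.05), 1 and 1 with DMSO 3 alone, and 0 and 0 with DMSO 1 alone (edgeR, 452 and 416 at an unadjusted p under 0.05). Higher genes were 50 without a filter and 121 with voom. With 1 library left out, higher genes ran from 4 to 74 and lower genes from 5 to 146. Fits with 1 DMSO library assume that it varies as the Yoda1 libraries do. The direction of the called list genes was not changed in the fits with 1 library left out. No paired analysis was possible because the labels number the libraries 1 to 3 and 4 to 6, so the groups share no number. The cause of these differences was not tested. Il6 had the fewest counts, 9 in DMSO 3, and its Poisson intervals, like those of Il13, do not all meet within a group, so libraries differed beyond counting error.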
